A study of Mus musculus with 6 samples.

Results

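The genes described here are 7 members of the Ms4a family that are not the B cell gene of that family: Ms4a4b, Ms4a4c, Ms4a4d, Ms4a6b, Ms4a6c, Ms4a6d and Ms4a7. They were chosen by name from 47643 genes with the difference between myeloma and control libraries already known, so their values in that comparison are given as a description, with no test. The study sequenced RNA of regulatory T cells, the suppressive lineage set by the transcription factor FOXP3, sorted as CD4+ FOXP3-GFP+ cells from mouse bone marrow. The myeloma group is 3 libraries from mice that received Vk*MYC, a mouse model of multiple myeloma, a cancer of plasma cells (replicates 3, 4 and 5). The control group is 3 libraries from control mice (replicates 1, 3 and 5), and cells of both groups carry the FOXP3-GFP reporter. Strain, age and the treatment of the control mice are not given in the labels.

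Ms4a genes encode small proteins that cross the cell membrane several times. The best known member is CD20, the product of Ms4a1 and a surface antigen of B cells. Others act as adaptors or partners of immune receptors: Ms4a2 encodes the beta chain of the high-affinity IgE receptor, and the product of Ms4a4b associates with the costimulatory receptor GITR on T cells. Ms4a4b and Ms4a6b are known as T cell members, Ms4a6d and Ms4a7 as macrophage members, and Ms4a4c and Ms4a6c are found in lymphoid as well as myeloid cells.

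All 7 genes lie in 1 cluster on chromosome 19 (GRCm38, the assembly that mm10 denotes), from the left end of Ms4a7 at 11321039 to the right end of Ms4a6d at 11604849, a span of 284 kb. Ms4a7 (19:11321039-11336146) and Ms4a6d (19:11586604-11604849) are on the minus strand. Ms4a4c (19:11404770-11427246), Ms4a4b (19:11443553-11467055), Ms4a6c (19:11469366-11482192), Ms4a6b (19:11516512-11531256) and Ms4a4d (19:11536801-11558467) are on the plus strand. The RefSeq starts of Ms4a4c and Ms4a6b used below lie within these spans, past their left ends. In coding sequence Ms4a4b and Ms4a4c were 91.8% identical over 681 aligned bases, and Ms4a4d was 85.7% identical to Ms4a4b and 87.9% to Ms4a4c. Ms4a6b was 87.4% identical to Ms4a6c and 82.2% to Ms4a6d. Ms4a7 was 67.1% to 69.7% identical to each of the other members, and genes of the 4 subgroup were 61.7% to 65.8% identical to those of the 6 subgroup.

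The likeness of the 4b and 4c pair and of the 6b and 6c pair reaches into their promoters. It is shown here because the members of each pair differed in level. Ms4a4b and Ms4a4c also differed in how far they stood apart between groups, whereas Ms4a6b and Ms4a6c each overlapped between groups. Below are the 250 bases before the RefSeq transcription start (table build GRCm38.p6, plus strand), with capitals marking runs of at least 12 aligned bases that are identical to the other gene of the pair. The windows are chr19:11443308-11443557 for Ms4a4b, chr19:11407411-11407660 for Ms4a4c, chr19:11518309-11518558 for Ms4a6b and chr19:11469118-11469367 for Ms4a6c.
Ms4a4b: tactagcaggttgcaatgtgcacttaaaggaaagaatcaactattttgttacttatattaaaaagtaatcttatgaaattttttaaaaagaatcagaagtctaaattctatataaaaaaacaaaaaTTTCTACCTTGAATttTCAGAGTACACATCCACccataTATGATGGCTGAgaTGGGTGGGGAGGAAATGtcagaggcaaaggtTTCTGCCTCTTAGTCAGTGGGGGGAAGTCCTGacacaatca
Ms4a4c: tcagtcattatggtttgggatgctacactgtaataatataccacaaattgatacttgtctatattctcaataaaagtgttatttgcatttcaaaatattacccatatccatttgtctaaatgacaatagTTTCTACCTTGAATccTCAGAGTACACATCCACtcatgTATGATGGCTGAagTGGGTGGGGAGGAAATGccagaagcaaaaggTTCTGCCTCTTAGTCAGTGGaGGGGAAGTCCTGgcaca
Ms4a6b: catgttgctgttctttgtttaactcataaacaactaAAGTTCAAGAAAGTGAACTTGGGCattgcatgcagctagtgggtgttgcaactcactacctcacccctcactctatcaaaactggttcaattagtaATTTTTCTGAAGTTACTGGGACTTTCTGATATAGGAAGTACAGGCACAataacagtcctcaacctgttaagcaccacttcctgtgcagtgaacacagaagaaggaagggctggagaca
Ms4a6c: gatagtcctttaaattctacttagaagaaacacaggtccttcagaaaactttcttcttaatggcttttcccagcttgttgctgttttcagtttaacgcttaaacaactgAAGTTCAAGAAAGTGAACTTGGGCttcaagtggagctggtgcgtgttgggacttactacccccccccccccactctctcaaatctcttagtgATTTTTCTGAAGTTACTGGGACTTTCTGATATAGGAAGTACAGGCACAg

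Ms4a4b and Ms4a4c were identical at 184 of 231 aligned promoter bases (79.7%), with all capitals in the part of the window nearer the start. Ms4a6b and Ms4a6c were identical at 149 of 175 aligned bases (85.1%) and shared 1 unbroken run of 48 bases. That run begins 118 bases before the start of Ms4a6b and 49 bases before that of Ms4a6c. In the 19 other pairs of member windows the longest shared run was 6 to 9 bases. The promoter table held 6 of the 7 members in 7 windows of 300 bases, Ms4a7 with a pair of starts and Ms4a6d with none.

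Motifs were searched on both strands of those windows. The interferon-stimulated response element core (GAAA, any 2 bases, GAAA) was in 0 of 7 member windows and in 3.44% of 32851 windows in the table. The gamma-activated site TTCNNNGAA (8.30% of all windows), the PU.1 site GAGGAAGT (3.20%) and the T-box half-site AGGTGTGA (1.28%) were also in none of the 7. A shorter form of the core, GAAANNGAA, searched after the sequences had been seen and contained in every match of the longer one, was in 4 of 7 windows against 8.56% of all. These were Ms4a6b, Ms4a6c and both windows of Ms4a7. In Ms4a6b and Ms4a6c it lies within a shared run in capitals, as gaaagtgaa, 206 and 133 bases before the start. A match is a description of letters and does not show a binding site.

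Total expected counts were 10240620 to 13314631 per library. The regulatory T cell markers (Foxp3, Il2ra, Ctla4, Ikzf2, Cd4, Cd3d, Cd3e and Cd3g) were present in all 6 libraries, with summed levels of 4999 to 5228 CPM in myeloma and 4489 to 5910 CPM in controls, where CPM is a gene's share of the library scaled by edgeR. Over all 13235 genes with enough counts to be tested, edgeR's quasi-likelihood test called 838 higher and 621 lower at an adjusted p under 0.05. Scaled by library totals only, 633 were called higher and 1004 lower. Macrophage and monocyte markers summed to 103.0 to 697.2 CPM in myeloma, the highest in replicate 5, and to 66.0 to 138.3 CPM in controls. B cell markers summed to 32.2 to 79.1 CPM in myeloma and to 54.9, 255.0 and 320.6 CPM in control replicates 1, 3 and 5. All 11 B cell markers were tested, and 6 were lower and none higher in myeloma, with none of the 11 at 0 in any library. Plasma cell markers summed to 106.4 to 364.1 CPM in myeloma and 62.2 to 78.7 CPM in controls (Jchain and Sdc1 higher among 5 tested). Red cell markers summed to 3843 to 4767 CPM in myeloma and 6711 to 14730 CPM in controls (5 of 6 lower). The part of these other markers in the members' values was not tested.

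All 7 genes passed the filter on low counts. Every myeloma value lay above every control value for Ms4a4b, Ms4a4c, Ms4a6d and Ms4a7, 4 of the 7, as for 17.3% of all genes tested. For Ms4a4d, Ms4a6b and Ms4a6c the groups overlapped. The test across all genes called 3 of the 7 higher (Ms4a4b, Ms4a4c and Ms4a7) and none lower, beside 6.33% of all genes called higher. The genes were chosen on this contrast, so nothing is read from these counts. The median log2 fold change of the 7 was 0.53, beside 0.02 over all genes tested.

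**Figure D1:**
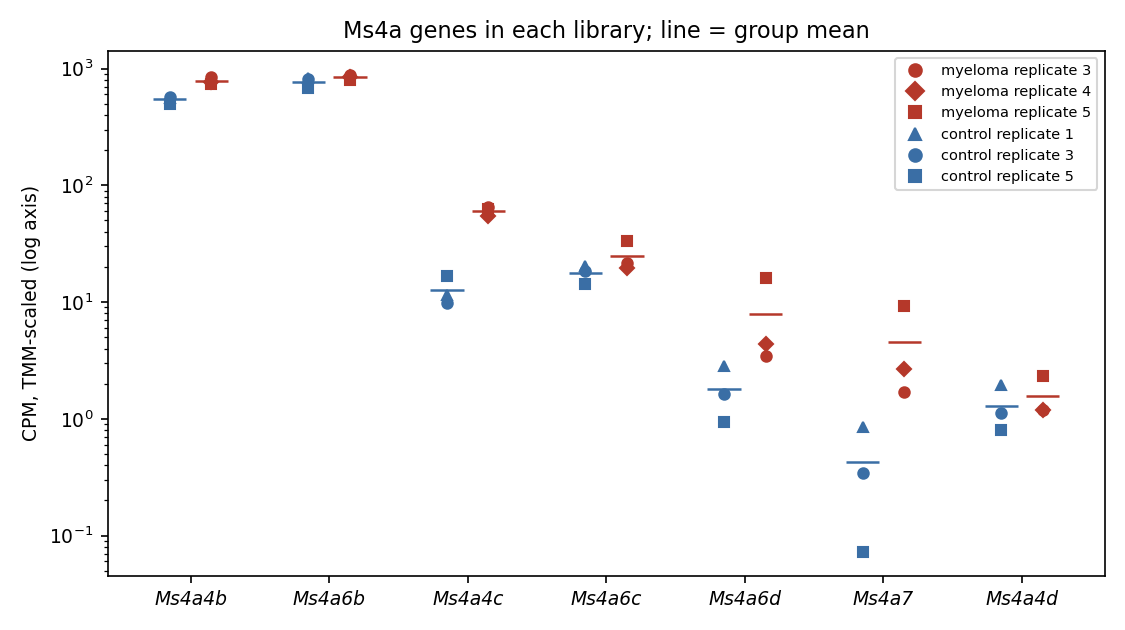
CPM of each of the 7 genes (log axis) in 3 control (blue) and 3 myeloma (red) libraries, 1 point per library with its shape set by replicate number and a line at each group mean. Ms4a4b and Ms4a6b sit at 498.9 to 886.9 CPM, the groups of Ms4a4c lie apart around means of 12.7 and 60.8 CPM, and the highest values of Ms4a6d and Ms4a7 are those of myeloma replicate 5.

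Ms4a4b and Ms4a6b, the T cell members, made up most of the family's transcripts. Compared per length, in the deposited TPM, a transcript's length-scaled share of the library, Ms4a4b came first in both groups at 1048 ± 134.3 TPM in myeloma and 906.4 ± 75.1 TPM in controls (SD, n = 3 each). Ms4a6b followed at 572.0 ± 56.8 and 592.2 ± 45.6 TPM. Together they held 88.4% to 91.5% of the TPM of all 19 Ms4a genes in myeloma libraries and 93.8% to 96.6% in controls. The 19 were taken by name and leave out Gm8369, a gene of the cluster described below. It stood at a mean of 278.7 TPM in myeloma and 255.2 TPM in controls, so these shares would be lower with it. By mean TPM in controls Ms4a4b ranked 161 and Ms4a6b 213 among all genes in the tables.

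The order of the other members by TPM in myeloma was Ms4a4c (111.5 ± 16.2), Ms4a6c (28.9 ± 5.58), Ms4a6d (9.84 ± 6.77), Ms4a7 (7.35 ± 4.87) and Ms4a4d (1.52 ± 0.555). In controls it was Ms4a4c (29.9 ± 19.1), Ms4a6c (21.2 ± 4.93), Ms4a6d (3.70 ± 2.29), Ms4a4d (1.51 ± 0.724) and Ms4a7 (1.01 ± 0.544). Neighbours in that order whose libraries overlapped in TPM were Ms4a6d and Ms4a7 in myeloma and, in controls, Ms4a4c and Ms4a6c, Ms4a6d and Ms4a4d, and Ms4a4d and Ms4a7. In control replicate 3 Ms4a4c, at 10.1 TPM, was below Ms4a6c, at 19.7 TPM.

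Ms4a4b, whose product is a GITR-associated adaptor that restrains T cell proliferation, stood at 853.4, 761.6 and 734.1 CPM in the myeloma libraries (replicates 3, 4 and 5; the order is kept throughout) and at 557.6, 574.5 and 498.9 CPM in the controls (replicates 1, 3 and 5). The groups did not overlap, with the lowest myeloma library at 734.1 CPM and the highest control at 574.5 CPM. The mean was 783.0 ± 62.4 CPM in myeloma and 543.6 ± 39.7 in controls (SD, n = 3), with a fitted log2 fold change of 0.53 (SE 0.10). In TPM the groups overlapped, with myeloma replicate 5 at 926.9 and control replicate 1 at 969.1, and the log2 ratio of group means was 0.21. The median gene tested stood at -0.23 on that TPM scale, and Ms4a4b at 0.43 relative to it. Without myeloma replicate 3 Ms4a4b was no longer called across all genes.

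Ms4a6b was at 886.9, 839.6 and 801.0 CPM in myeloma and at 825.0, 807.8 and 674.8 CPM in controls. The groups overlapped, since control replicates 1 and 3 lay above myeloma replicate 5. The log2 fold change was 0.13 (SE 0.10), and the log2 ratio of TPM means had the other sign, at -0.05 (0.18 relative to the median gene).

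The balance between these abundant genes can be read within each library, where scaling cancels. The ratio of Ms4a4b to Ms4a6b in CPM was 0.962, 0.907 and 0.916 in myeloma against 0.676, 0.711 and 0.739 among controls. The groups did not overlap in this ratio either.

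Ms4a4c, the close copy of Ms4a4b and a gene known to be induced by interferons, was at 65.6, 54.6 and 62.2 CPM in myeloma and at 11.6, 9.79 and 16.6 CPM in controls. Every myeloma library lay more than 3 times above the highest control, control replicate 5. The mean was 60.8 ± 5.64 CPM against 12.7 ± 3.50 (SD, n = 3), a fitted 4.78-fold difference (log2 fold change 2.26, SE 0.18). Its ratio to Ms4a4b was 0.0717 to 0.0847 in myeloma and 0.0170 to 0.0332 in controls, so the close copies differed in how far they stood apart between groups.

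The TPM of Ms4a4c spread more among controls than its CPM, at 31.5, 10.1 and 48.2 TPM in replicates 1, 3 and 5. The deposited effective length of the gene was 1388 bases in control replicate 3 and 549.7 to 742.6 bases in the other 5 libraries. The TPM of myeloma libraries, 100.9 to 130.2, still lay above all controls. For Ms4a7 the effective length ran from 300.4 to 969.8 bases over the 6 libraries, and for Ms4a6d from 638.6 to 1222 bases, so their TPM carry the same limit.

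**Figure D2:**
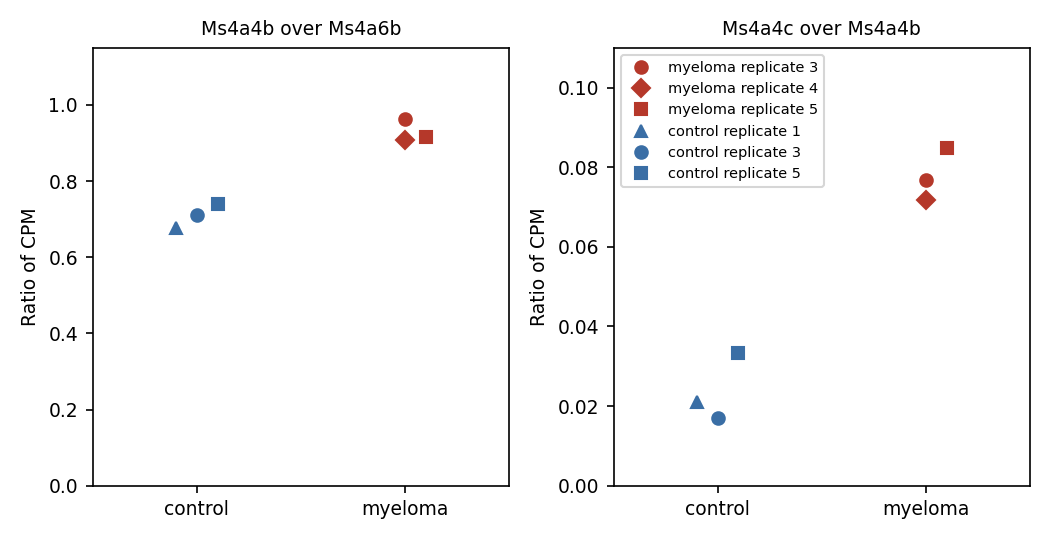
Ratio of CPM within each library for Ms4a4b over Ms4a6b (left) and Ms4a4c over Ms4a4b (right), 1 point per library, with both axes starting at 0. Myeloma libraries lie at 0.907 to 0.962 on the left and 0.0717 to 0.0847 on the right, above all controls in both.

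Ms4a4d, the third of the 4 subgroup, was near the limit of detection, at 1.19, 1.19 and 2.32 CPM in myeloma and 1.95, 1.12 and 0.799 CPM in controls. The groups overlapped, and the log2 fold change of 0.28 (SE 0.56) turned to -0.12 without myeloma replicate 5.

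Ms4a6c was at 21.7, 19.6 and 33.1 CPM in myeloma and at 20.2, 18.5 and 14.2 CPM in controls. The groups overlapped, and myeloma replicate 5 was the highest library (log2 fold change 0.49, SE 0.22, and 0.22 without that library). Its counts carry a limit of their own: BE692007, a transcript at 77.5 to 133.7 CPM, lies on the opposite strand over most of the gene, and the library kit does not mark strand. Where transcripts of the pair share sequence, their reads cannot be told apart.

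Ms4a6d, a macrophage member, was at 3.47, 4.37 and 16.0 CPM in myeloma and at 2.81, 1.63 and 0.944 CPM in controls. Myeloma replicate 5 stood far above all other libraries, and the other 2 lay just above control replicate 1. The log2 fold change was 2.14 (SE 0.65), and 1.12 without myeloma replicate 5. Its groups overlapped in TPM, with control replicate 1 at 6.01 (effective length 735.1 bases) and myeloma replicate 3 at 3.86 (1222 bases).

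Ms4a7, also a macrophage member, was at 1.69, 2.68 and 9.20 CPM in myeloma and at 0.858, 0.344 and 0.0726 CPM in controls. These are 20, 27 and 103 counts against 11, 4 and 1. The log2 fold change of 3.39 (SE 0.88) was 2.33 without myeloma replicate 5 and 4.41 without control replicate 1. Leaving out myeloma replicate 4 or 5, or control replicate 3 or 5, ended its call across all genes, as did the replicate number as a block.

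**Figure D3:**
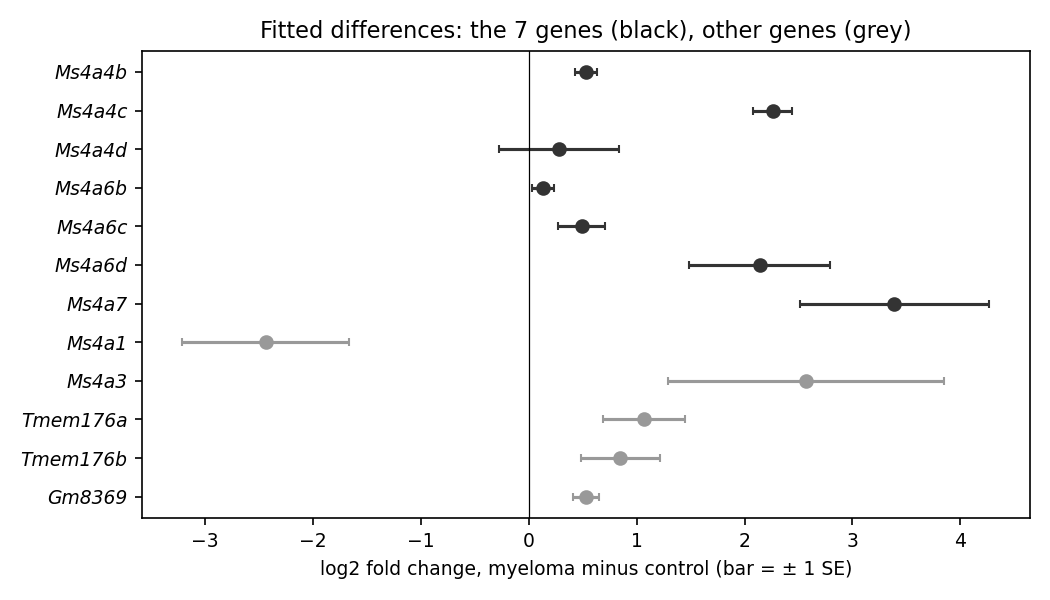
Fitted log2 fold change, myeloma minus control, with bars of 1 SE from the fit over 6 libraries, for the 7 genes (black) and for 5 other genes (grey). Ms4a7 at 3.39 and Ms4a4c at 2.26 lie farthest to the right among the 7, with a bar of 0.88 for the first and 0.18 for the second.

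Ms4a6d and Ms4a7 were highest in the library with the highest macrophage markers, myeloma replicate 5. Of 14 such markers (Cd68, Csf1r, Lyz2, Adgre1, C1qa, C1qb, C1qc, Mertk, Cd14, Fcgr1, Ly86, Mpeg1, Vcam1 and Spic) 13 were tested, and 4 were higher and none lower in myeloma: C1qa, Mertk, Fcgr1 and Mpeg1. Cd14 had no count in myeloma replicate 3, and no other marker of the list was at 0 in any library. Over all genes tested 6.33% were called higher. The list's median log2 fold change was 1.99, beside 0.02 over all genes tested. The summed level was 103.0, 200.5 and 697.2 CPM in myeloma against 138.3, 66.0 and 107.2 CPM among controls. In these bulk libraries more cells of a type and more RNA per cell cannot be told apart, and the part of these markers in the Ms4a6d and Ms4a7 values was not tested.

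Per 100 CPM of those markers, Ms4a6d stood at 3.37, 2.18 and 2.29 in myeloma and at 2.03, 2.47 and 0.880 in controls, and the groups overlapped. Ms4a7 stood at 1.64, 1.34 and 1.32 in myeloma and at 0.620, 0.521 and 0.0677 in controls, with no overlap, and its control values rest on 11, 4 and 1 counts. The 3 myeloma values of Ms4a4c lay between 54.6 and 65.6 CPM while the sum ran from 103.0 to 697.2. What sets these ratios and values was not tested.

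**Figure D4:**
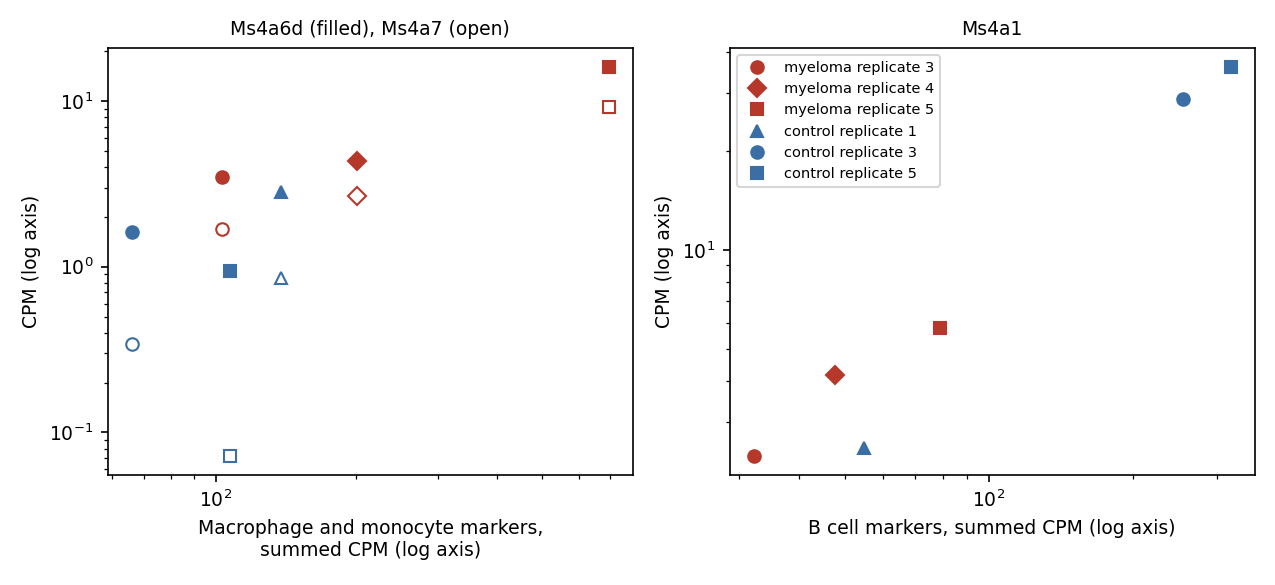
Left: CPM of Ms4a6d (filled) and Ms4a7 (open) against the summed CPM of 14 macrophage and monocyte markers, 1 symbol per library, log axes. Right: CPM of Ms4a1 against the summed CPM of 11 B cell markers, where control replicates 3 and 5 stand apart at 28.8 and 35.9 CPM.

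Likeness of pattern was measured as the root mean square difference in log2 CPM over the 6 libraries, each gene centred on its own mean, and the 3 closest of the tested genes with at least 5 CPM were taken for each member. For Ms4a4c they were Rtp4 (0.08), Cmpk2 (0.11) and Usp18 (0.17), all known as interferon-induced. Rtp4 was at 201.9, 157.4 and 184.8 CPM in myeloma and 30.5, 28.9 and 45.7 CPM in controls, with control replicate 5 the highest control, as for Ms4a4c. For Ms4a6d they were the complement gene C1qb (0.25), the macrophage surface gene Adgre1 (0.26) and C1qa (0.33). For Ms4a7 they were C1qa (0.51), Gjb2 (0.56) and Mt1 (0.57), so no candidate came as close to it as to the other members.

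For Ms4a4b the closest genes were Ndufa4 and Nlrc5 (0.02 each), the second a transactivator of class I antigen presentation genes, and Rnaset2b (0.04). For Ms4a6b they were Uimc1 and Sri (0.04 each) and Med10 (0.05). For Ms4a6c they were St6galnac4 (0.06), Gmppb and Ssh3 (0.09 each), and for Ms4a4d Scamp1 (0.16), Lrrk1 and Slc14a1 (0.17 each). With 6 libraries many genes share a pattern, and these are a description.

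The tables hold 12 other Ms4a genes, of which 2 were tested and none was called. Ms4a1, which encodes CD20, was at 2.37, 4.17 and 5.80 CPM in myeloma and at 2.50, 28.8 and 35.9 CPM in control replicates 1, 3 and 5. It differed by a log2 fold change of -2.44 (SE 0.77, edgeR adjusted p = 0.0736). It passed without control replicate 1 (-2.99, adjusted p = 0.00188), with the replicate number as a block (adjusted p = 0.00834) or with no filter (adjusted p = 1.28e-21). The block rests on numbers 3 and 5 and so also sets control replicate 1 aside, and these are not separate checks. With no filter the log2 fold change was -2.47, so the smaller p there does not reflect a larger difference. The libraries with high Ms4a1 were those with high B cell markers.

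Ms4a3, a gene of granulocyte and monocyte progenitors, was at 2.37, 3.77 and 0.0893 CPM in myeloma and at 0.936, 0 and 0.0726 CPM in controls (edgeR adjusted p = 0.229). Neutrophil and progenitor markers summed to 139.2, 475.1 and 439.9 CPM in the same myeloma libraries and to 190.0, 64.8 and 167.5 CPM in controls. Ms4a4a, a macrophage member, missed the filter with 1, 8 and 100 counts in myeloma and 3, 11 and 10 in controls, and was high in myeloma replicate 5 alone. Ms4a10, Ms4a12, Ms4a15 and Ms4a18 had no count in any library, which allows up to 0.218 to 0.298 CPM in each (3 counts, counting error only). The related Tmem176a (log2 fold change 1.07, SE 0.38, adjusted p = 0.101) and Tmem176b (0.85, SE 0.37, adjusted p = 0.173) were not called by edgeR. With no filter both passed (adjusted p = 0.0297 and 0.0375), as did Ms4a3 (adjusted p = 0.0327). That fit called more genes over all, 1337 higher against 838 with the filter, so a pass in it says less. Tmem176a also passed with the effective-length offset (log2 fold change 1.92, adjusted p = 0.0325).

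Among 8 genes whose products are known to work with family members, 4 were tested, and 2 were higher and none lower. Over all genes tested 6.33% were called higher. Tnfrsf18, which encodes GITR, the partner of the Ms4a4b product, was at 527.6, 537.0 and 449.2 CPM in myeloma and at 351.0, 309.3 and 276.0 CPM in controls. It rose by 0.69 on the log2 scale (SE 0.11, edgeR adjusted p = 0.00776), with no overlap between groups. Its ligand gene Tnfsf18 had at most 4 counts in any library. Fcer1a, with at most 1 count in any library, Vsig4 and Trem2 were not tested either. Vsig4 had 5, 0 and 8 counts in myeloma and 0 in each control. Trem2 had 3, 4 and 21 counts in myeloma and 15, 6 and 3 in controls. Clec7a, the receptor Dectin-1 of myeloid cells, rose by 2.99 (SE 0.70, edgeR adjusted p = 0.0296) and lost its call in 5 of the 6 fits without 1 library, the exception being myeloma replicate 3, and with the effective-length offset (adjusted p = 0.0688). Without myeloma replicate 5 its log2 fold change was 2.06. The signalling adaptors Fcer1g (adjusted p = 0.0676) and Tyrobp (adjusted p = 0.170) did not pass edgeR's test, and both were highest in myeloma replicate 5, at 57.0 and 34.0 CPM. Both passed with no filter (adjusted p = 1.22e-23 and 4.32e-08) and without myeloma replicate 3 (0.0407 and 0.0415). Without myeloma replicate 5 the log2 fold change fell from 2.44 to 0.90 for Fcer1g and from 1.84 to 0.34 for Tyrobp. The edgeR adjusted p in that fit was 0.172 and 0.751. Tyrobp in myeloma replicate 3, at 1.78 CPM, was below all controls (3.35 to 4.92 CPM).

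On the chromosome, 64 other genes have their left ends within 500 kb of the members' span, of which 16 were tested, 3 rose and 1 fell. Their median log2 fold change was -0.04, beside 0.02 over all genes tested. Of all 13235 genes tested, 838 were called higher and 621 lower. Gm8369, which lies between Ms4a6c and Ms4a6b (19:11485938-11512577), was 91.4% identical to Ms4a4c over 372 aligned coding bases. It was at 158.9, 150.9 and 124.8 CPM in myeloma and at 104.0, 110.5 and 85.6 CPM in controls (log2 fold change 0.53, SE 0.12, edgeR adjusted p = 0.0280). Its groups did not overlap, but it lost its call in all fits without 1 library except the one without myeloma replicate 5, at adjusted p of 0.0556 to 0.0976, with the replicate number as a block (0.0571) and with the effective-length offset (log2 fold change 0.36, adjusted p = 0.170).

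AW112010, a long noncoding RNA gene outside the members' span on the Ms4a7 side (19:11047612-11055808), was at 519.2, 488.0 and 397.0 CPM in myeloma and at 226.1, 197.9 and 119.1 CPM in controls. It rose by 1.37 on the log2 scale (SE 0.21, edgeR adjusted p = 0.00630) and passed whichever library was left out. Slc15a3, a lysosomal peptide transporter gene (19:10839727-10859362), rose by 1.97 (SE 0.33, edgeR adjusted p = 0.00879) and also passed in each of those fits. Osbp, an oxysterol-binding protein gene, fell by 0.39 (log2 fold change -0.39, SE 0.09, edgeR adjusted p = 0.0287). It lost its call without myeloma replicate 3 or 4 or control replicate 3 or 5. The same held with the replicate number as a block (adjusted p = 0.108) and with the effective-length offset (adjusted p = 0.0532).

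**Figure D5:**
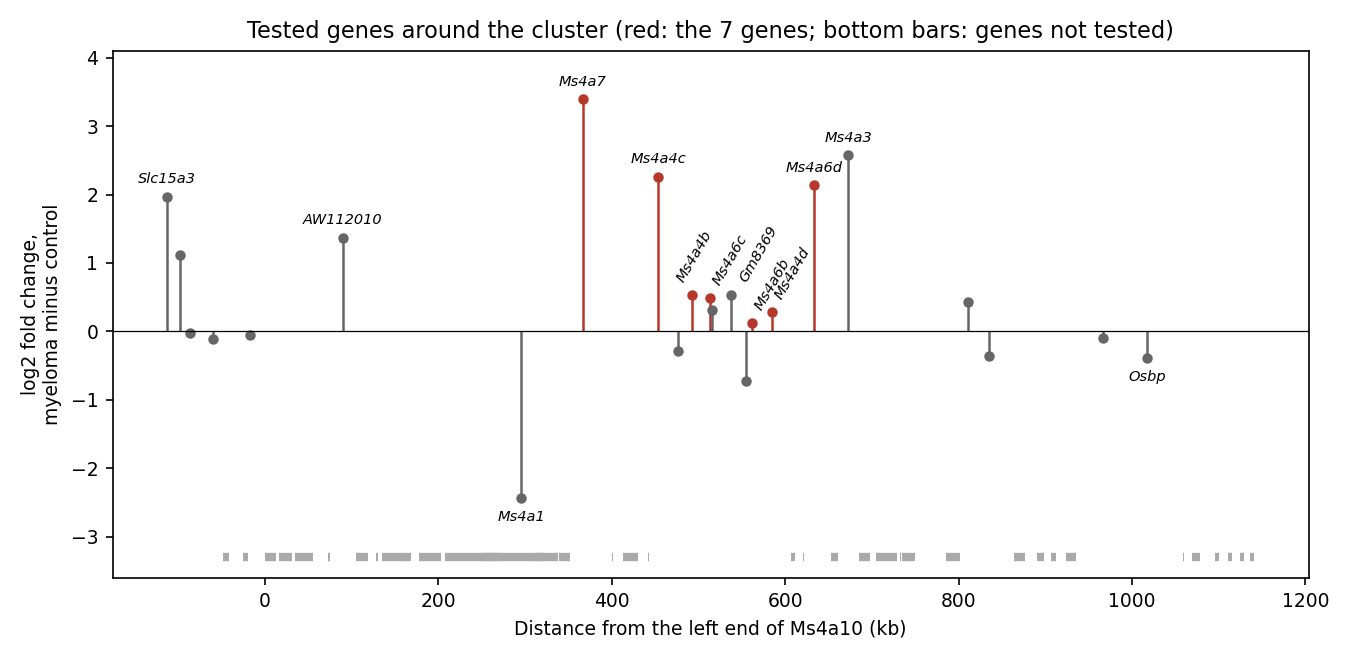
Fitted log2 fold change of each tested gene around the cluster against its distance from the left end of Ms4a10, in kb, with the 7 genes in red, other tested genes in dark grey and genes not tested as bars at the bottom. Ms4a1 at -2.44 lies between AW112010 at 1.37 and Ms4a7 at 3.39.

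How far reads of close copies could be divided bears on all of these values. Of the 50-base windows in the coding sequence, 12.3% for Ms4a4b, 13.6% for Ms4a4c, 7.58% for Ms4a6b, 9.59% for Ms4a6c, 5.76% for Ms4a6d and 1.27% for Ms4a4d also occurred exactly in a transcript of another gene. For Ms4a7 the share was 0 of 755 windows. RSEM divides such reads by a model, so counts of the close copies are uncertain. These shares do not bound that uncertainty, since the copies differ in level: control means were 543.6 CPM for Ms4a4b and 12.7 CPM for Ms4a4c. Over the windows of all annotated transcripts of the gene, not of the coding sequence alone, the share was 51.4% for Ms4a6c. These were shared with transcripts of 21 other genes, BE692007 among them. Matches on either strand counted in all of these shares. Read length is not given in the sources used here.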

How the data were processed

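RNA came from sorted CD4+ FOXP3-GFP+ marrow cells (RNeasy Micro and NEBNext Ultra kits, per the labels' protocols). STAR, RSEM, Picard and DESeq2 and the build mm10 are named in the submitters' processing notes, with no version or setting (not given in the sources used here). The authors deposited 1 RSEM table per library with 47643 genes. Its expected counts are RSEM's estimated reads per gene, not normalized, per the file headers. The deposited TPM and FPKM are scaled for effective length and library total, per the file headers. TPM served to compare genes, and FPKM was not used.

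Symbols came from the reference table for 47224 genes. Expected counts were rounded to whole numbers, and filterByExpr kept genes with enough counts (minimum count 10, minimum total 15). TMM factors and the quasi-likelihood test came from edgeR 4.0.16 in R 4.3.3, with Benjamini-Hochberg adjustment over 13235 genes. The SE is the log2 fold change divided by the root of F. The script was tested on simulated data. Replicates are separate libraries, and nothing in the labels ties a number to a mouse, so p-values measure the spread between libraries. Totals of 10240620 to 13314631 put 10 counts near 1 CPM.

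The members and the gene lists were chosen with earlier results of these data known. 1 gene of the macrophage marker list is not reported here and was left out of its sums and counts. DESeq2 1.42.0, other scalings, no filter, an effective-length offset, the replicate block, TPM and leaving out each library were alternatives. Protein identity had been planned, and identity of coding sequences was computed instead. The rule for named genes took the members, other tested family genes with Tmem176a and Tmem176b, partner genes, marker lists and the 3 genes closest in pattern to each member. Family genes that were not tested, the called neighbours and BE692007 fall outside it and were named after their values were seen. Coordinates are GENCODE M21's, whose version of the Ms4a4b identifier differs from the deposited one. Promoters are RefSeq's, and coding sequences (GENCODE M21) were aligned with Biopython 1.88.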

Additional observations from a re-analysis of the deposited data

How the results depend on the processing

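Log2 fold changes of the 7 genes were recomputed under 105 combinations of gene and setting, of which 100 moved by less than the spread between replicates with no change of sign. The 5 others were Ms4a4b (0.21), Ms4a4c (1.90) and Ms4a6b (-0.05) with TPM in place of counts, and Ms4a4d (-0.12) and Ms4a6d (1.12) without myeloma replicate 5. The spread was each gene's own SD of log2 CPM, from 0.11 for Ms4a4b to 1.13 for Ms4a7. A noisy gene thus passed easily: Ms4a7, at 3.39, counted as unmoved at 2.33 and 4.41, so the count of 100 is a weak check. Leaving out 1 library gave 0.45 to 0.57 for Ms4a4b, 2.10 to 2.49 for Ms4a4c, -0.12 to 0.70 for Ms4a4d, 0.22 to 0.64 for Ms4a6c, 1.12 to 2.61 for Ms4a6d and 2.33 to 4.41 for Ms4a7. The number of the 7 with groups that do not overlap was 4 under each scaling of counts and 2 with TPM, a setting chosen after seeing the data. It was 4 to 6 when 1 library was left out, but it cannot fall when a library is removed, so that range is no check. The cause of the TPM differences was not tested.

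Over all genes, 838 were higher and 621 lower. Without a filter there were 1337 and 1102, with library sizes alone 1004 were lower, and with the effective-length offset 372 were lower. Leaving out 1 library gave 331 to 836 higher and 123 to 546 lower, from fits with fewer samples. With the replicate number as a block, which rests on numbers 3 and 5, 362 were higher and 142 lower. Deviations of same-numbered libraries from their group means correlated at 0.03 and 0.10, and the labels do not say that the numbers pair mice. DESeq2 and the fit with no filter also called Ms4a6d, giving 4 of the 7. Both called more genes over all as well, DESeq2 996 higher and 871 lower, and nothing is read from these counts. At about 1 CPM or less, the level of Ms4a4d, and of Ms4a7 in controls, depth limits what can be seen.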
